A study of Mus musculus with 6 samples.

Results

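The genes described here encode the proteins of the mitochondrial ribosome, and they were followed in a mouse microglial cell line, BV2, after exposure to adenine, a purine base. Microglia are the macrophages of the brain, and BV2 is immortalised. Members were all probes whose symbol in the array's platform table, ignoring case, was MRPL or MRPS followed by a digit. That rule found 76 of 26423 probes, of which 50 were MRPL probes and 26 were MRPS probes. They stand for 67 of 17742 named genes, 43 of them Mrpl and 24 Mrps. The rule reads symbols only, but it was chosen with earlier results of these data known. The 6 single-colour arrays fall into 3 groups of 2: untreated control cells, cells given a lower dose of adenine and cells given a higher dose, each adenine exposure lasting 1 h. Titles and treatment protocol state 20 and 80 µM, whereas the sample characteristics state 80 and 250 µM, so that the doses are called by their rank, which both sources share. The series describes separate cultures of control and of treated cells, but the labels leave unsaid whether the arrays of 1 group had a culture each, so the spread between them may be technical. The groups share the cell line and differ only in adenine as far as the labels say.

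The mitochondrial ribosome translates the messages encoded by mitochondrial DNA, all of which specify core subunits of the oxidative phosphorylation complexes. Its ribosomal RNAs are made inside the organelle, whereas its proteins are encoded in the nucleus, made in the cytosol and imported. Proteins named Mrpl were assigned to the large subunit, which joins amino acids, and those named Mrps to the small subunit, which reads the messenger RNA. Some have counterparts in bacterial ribosomes, and others were acquired in the mitochondrial lineage.

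Values are background-subtracted spot intensities, quantile-normalized between arrays and called units below. Fold changes and adjusted p-values are from limma, fitted to all probes with Benjamini-Hochberg adjustment, and "rose" or "fell" means an adjusted p under 0.05. Errors of log2 changes are standard errors from that fit, with 2 arrays per group, and this number of arrays limits their precision. Array medians as deposited ran from 125 to 170 units, and 196 to 315 probes per array lay under the floor of 1 unit. Of the 76 member probes, 69 were brighter than the median probe, which averaged 142 units, and none came near the scanner's ceiling (brightest value 37857 units). A brighter probe does not mean a more abundant transcript, since each probe has its own response. Of 11 measured markers of microglia and macrophages, 2 rose at the higher dose against control (Aif1 and Itgam) and none fell, while 6 of the 11 had a negative log2 change and the list's median was -0.13. The summed level of the list, which a few bright markers carry, was 111944 and 98963 units at the higher dose against 74799 and 77241 units in control cells. None of 5 astrocyte, 4 neuron, 5 oligodendrocyte, 5 fibroblast and 5 endothelial markers measured was called in that comparison. Of the 5 astrocyte markers 1 was brighter than the median probe, and 2 had a positive and 3 a negative log2 change. Slc1a3, an astrocyte marker, lay below 0 on both higher-dose arrays. The fibroblast list summed to between 113 and 141 units on every array. In bulk RNA, a change in the number of cells of a type and a change in RNA per cell cannot be told apart. The part of these shifts in the results below was not tested.

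Of the 67 genes, 58 matched a promoter window in the RefSeq table for build GRCm38.p6 (64 windows of 300 bases, 250 before and 50 after the start). Letters known as binding motifs of regulators of mitochondrial genes were counted on both strands. The ETS motif CCGGAAG, bound by GABP among others, stood in 32.8% of the members' windows, against 12.6% of the windows of all genes named on the array. The YY1 motif AAGATGGC stood in 17.2% of the members' windows against 3.35%, and the NRF1 motif GCATGCGC in 10.9% against 3.92%. None of these motifs contains another. The GC box GGGCGG stood in 32 of the 64 members' windows, against 51.5% of the windows of genes on the array, and the TATA box TATAAA in 7.81% against 10.3%. The ETS motif was found for 10 of 27 genes that rose at the higher dose against control (37.0%) and for 11 of 30 genes with no call (36.7%). In the same order, YY1 was found for 5 and 6 genes, NRF1 for 2 and 5, the GC box for 14 and 13 and the TATA box for 4 and 1. These differences were not tested. Shares of windows are a description, and windows of neighbouring genes overlap. The windows of 5 members are shown 5′ to 3′ along the strand of the gene, with the letters of ETS, NRF1 and YY1 motifs, on either strand, in capitals and GC boxes unmarked.
Mrpl52, chr14:54426659-54426958, plus strand: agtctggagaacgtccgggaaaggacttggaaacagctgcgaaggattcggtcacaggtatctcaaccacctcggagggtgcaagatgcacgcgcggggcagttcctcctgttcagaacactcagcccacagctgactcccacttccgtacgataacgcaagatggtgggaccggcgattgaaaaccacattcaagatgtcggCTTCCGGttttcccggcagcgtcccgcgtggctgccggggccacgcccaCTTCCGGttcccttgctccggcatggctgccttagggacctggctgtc
Mrpl33, chr5:31613701-31614000, plus strand: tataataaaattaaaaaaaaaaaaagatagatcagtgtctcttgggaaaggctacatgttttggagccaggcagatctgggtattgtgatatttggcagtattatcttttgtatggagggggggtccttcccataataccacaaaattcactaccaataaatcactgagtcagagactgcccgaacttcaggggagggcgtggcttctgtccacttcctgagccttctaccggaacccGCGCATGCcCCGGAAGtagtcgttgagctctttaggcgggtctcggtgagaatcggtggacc
Mrps18a, chr17:46110754-46111053, plus strand: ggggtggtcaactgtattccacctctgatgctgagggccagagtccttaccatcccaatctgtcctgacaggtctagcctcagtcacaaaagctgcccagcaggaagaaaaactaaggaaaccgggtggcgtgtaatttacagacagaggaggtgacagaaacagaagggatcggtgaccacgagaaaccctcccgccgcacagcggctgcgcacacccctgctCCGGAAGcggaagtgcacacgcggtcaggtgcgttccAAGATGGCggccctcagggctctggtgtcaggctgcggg
Mrps11, chr7:78782881-78783180, plus strand: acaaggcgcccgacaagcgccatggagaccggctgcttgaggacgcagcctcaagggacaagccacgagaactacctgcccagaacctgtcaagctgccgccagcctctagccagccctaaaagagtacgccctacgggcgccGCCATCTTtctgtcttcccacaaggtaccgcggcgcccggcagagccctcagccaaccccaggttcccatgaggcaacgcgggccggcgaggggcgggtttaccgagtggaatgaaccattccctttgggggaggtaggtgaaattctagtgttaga
Mrpl43, chr19:45006393-45006692, minus strand: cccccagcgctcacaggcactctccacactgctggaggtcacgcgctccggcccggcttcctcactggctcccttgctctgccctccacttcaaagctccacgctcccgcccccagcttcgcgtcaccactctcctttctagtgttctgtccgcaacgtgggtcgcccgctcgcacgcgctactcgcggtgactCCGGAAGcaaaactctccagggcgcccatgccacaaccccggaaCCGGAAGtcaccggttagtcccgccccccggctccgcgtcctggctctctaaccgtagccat
Mrpl52 had the smallest p of all members and carries 2 ETS motifs, Mrpl33 an ETS motif beside an NRF1 motif, and Mrps18a an ETS and a YY1 motif. Mrps11 carries a YY1 motif and shares 141 bases of its window with Mrpl46, which runs the other way. The window of Mrpl43, with 2 ETS motifs, shares 215 bases with that of Twnk, the gene of the mitochondrial DNA helicase.

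At the higher dose against control, 33 of the 76 member probes rose and 2 fell. Over all probes the comparison called 10.6% (5.55% higher and 5.06% lower). The members' share of risers, 43.4%, stood above that background and their share of fallers, 2.63%, below it. That background includes many dim probes, whereas 69 of the 76 member probes were brighter than the median probe. With only the brighter probes in the fit, 45 of 69 members rose and 5 fell. Of 13211 such probes, 5524 were called in either direction. The median log2 change of the members was 0.75, against -0.01 over all probes. Both arrays of the higher dose lay above both control arrays for 52 member probes and below them for 13, where all probes gave 28.8% and 31.3%. Counted by gene, with the brightest probe of each, 32 of 67 genes rose and 1 fell, against 6.37% and 5.39% of all named genes. Each adjusted p rests on all 6 arrays. With only the higher dose and control in the fit, 23 members passed, where 1584 of all 26423 probes did. Leaving out a control or higher-dose array, which leaves 1 in its group, removed the calls of members and nearly all calls over all probes. All 33 risers kept 1 direction under the 14 alternative settings tried for single probes. Both fallers did under the 13 that could be run for them. They lie below the median probe and drop out when only brighter probes are kept. Settings that change only the spread estimate, the probes kept or the lower-dose arrays cannot alter these log2 changes or turn a sign.

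**Figure D1:**
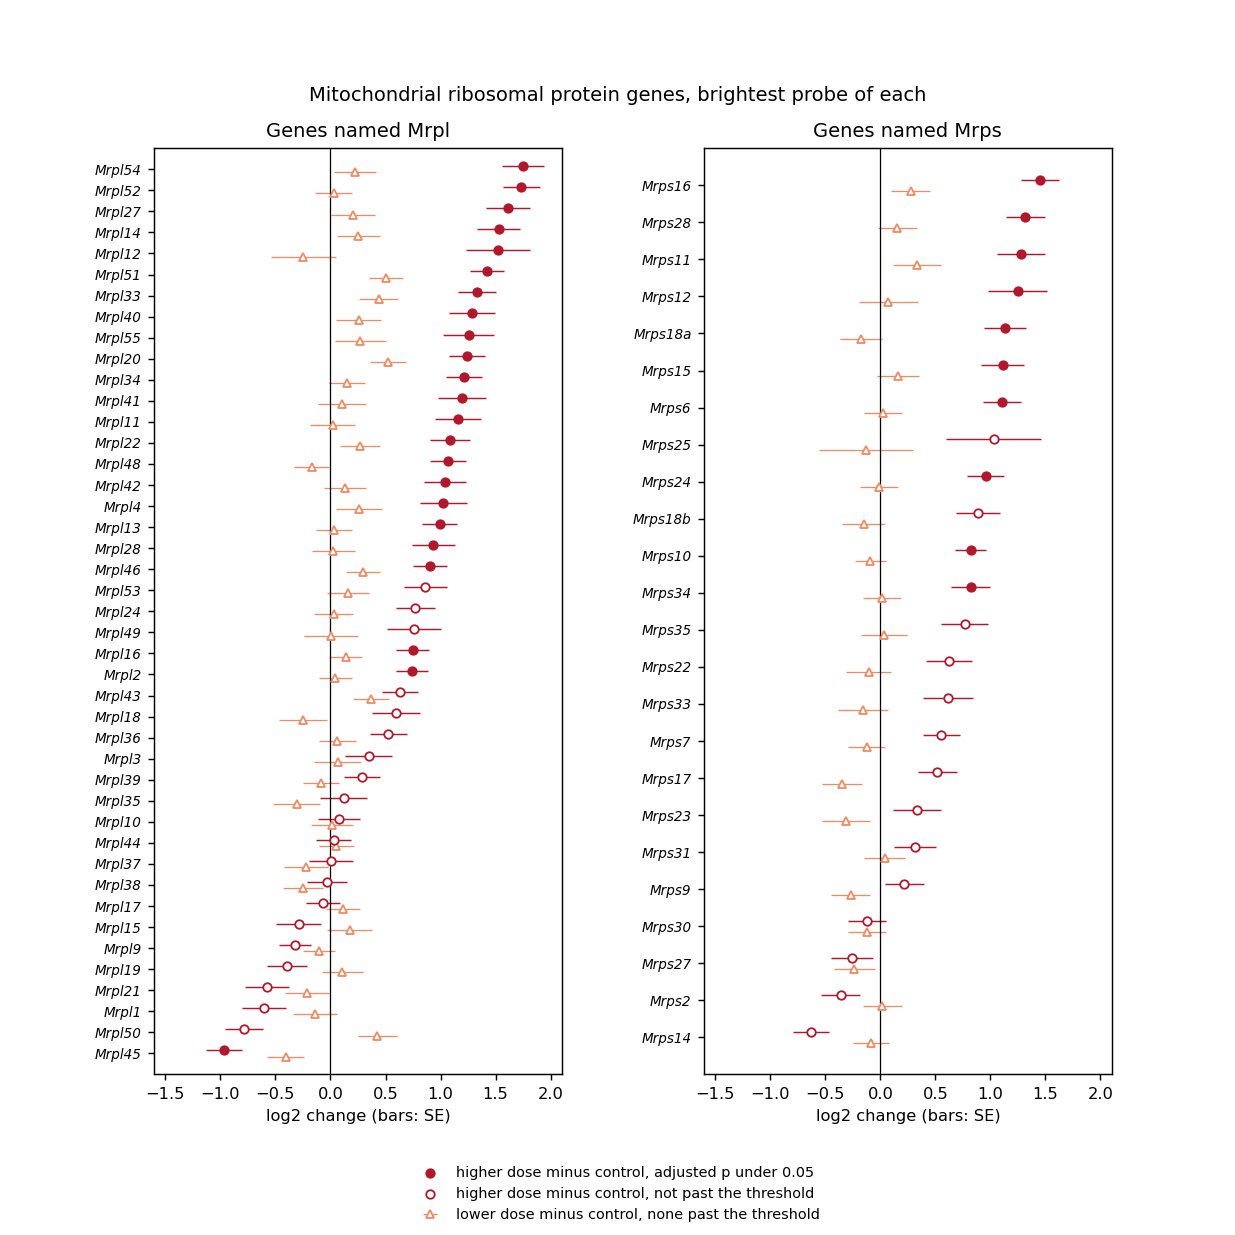
Log2 change against control of the brightest probe of each of 67 genes, Mrpl on the left and Mrps on the right, with bars of 1 SE. Filled circles mark the 33 genes called at the higher dose, all but Mrpl45 to the right of 0, open circles the genes not past it, and triangles the lower dose, where no gene passed.

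Among large-subunit proteins with a bacterial counterpart, 14 of 26 measured genes rose and none fell (median log2 change 0.76). Mrpl27, which lies near the site of peptide bond formation, measured 1572 and 1921 units in control cells, 2253 and 1787 units at the lower dose and 5082 and 5574 units at the higher dose. Its higher-dose values stood apart from the other 4 arrays, 3.06-fold above control (log2 change 1.61 ± 0.20, adjusted p = 0.0204). Mrpl14, counterpart of a bacterial protein at the interface of the subunits, measured 1754 and 2025 units in control cells, 1974 and 2546 units at the lower dose and 5188 and 5680 units at the higher dose. It was 2.88-fold higher at the higher dose than in control cells (log2 change 1.53 ± 0.19, adjusted p = 0.0207). Mrpl12, the stalk protein that also binds the mitochondrial RNA polymerase, had 8700 and 12023 units at the higher dose against 3308 and 3837 units in control cells, and its higher-dose arrays differed more from each other than those of Mrpl27 (log2 change 1.52 ± 0.29, adjusted p = 0.039). Mrpl33 had 13280 and 16438 units at the higher dose against 5537 and 6229 units in control cells, a log2 change of 1.33 ± 0.18 (adjusted p = 0.0216). Mrpl34 had 7843 and 6805 units against 3350 and 2954 units in control cells, and Mrpl20, an early-binding protein of the bacterial large subunit, 17069 and 17112 units against 7256 and 7248 units. Their log2 changes were 1.22 ± 0.16 and 1.24 ± 0.16 (adjusted p = 0.0219 and 0.0215). The smallest rise in this class was that of Mrpl2, a component of the catalytic core, at 0.74 ± 0.15 (adjusted p = 0.0426). Of the 12 not called, 6 had a negative log2 change. Mrpl10, which anchors the stalk, had a log2 change of 0.07 ± 0.19, and Mrpl9 one of -0.33 ± 0.14 (adjusted p = 0.836 and 0.215). The lowest was that of Mrpl1, at -0.61 ± 0.20 (adjusted p = 0.119). Its dim second probe gave -1.59 ± 0.35 and barely missed the threshold (adjusted p = 0.05004).

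Among large-subunit proteins without a bacterial counterpart, 8 of 17 measured genes rose and 1 fell (median log2 change 0.86). Mrpl52 measured 3437 and 2972 units in control cells, 3512 and 3036 units at the lower dose and 10990 and 10300 units at the higher dose. The lower dose overlapped control and the higher dose lay apart, 3.33-fold above control (log2 change 1.73 ± 0.17, adjusted p = 0.0186). Mrpl54 measured 1495 and 1294 units in control cells, 1452 and 1816 units at the lower dose and 4942 and 4400 units at the higher dose. Its log2 change at the higher dose, 1.75 ± 0.19, was the largest among the members (adjusted p = 0.0199). Mrpl51, by its brighter probe, had 9042 and 9558 units at the higher dose against 3269 and 3667 units in control cells (log2 change 1.43 ± 0.16, adjusted p = 0.0199). Mrpl40, Mrpl41, Mrpl42, Mrpl46 and Mrpl48 made up the other risers of this class. The gene that fell was Mrpl45, which lies at the exit of the peptide tunnel and contacts the inner membrane. It measured 61 and 51 units at the higher dose against 105 and 114 units in control cells, below the median probe in both (log2 change -0.97 ± 0.17, adjusted p = 0.0309). Mrpl50 had 3718 and 3243 units at the higher dose against 6135 and 5852 units in control cells and missed the threshold (log2 change -0.79 ± 0.18, adjusted p = 0.0523). Mrpl37, Mrpl38 and Mrpl44 had log2 changes between -0.03 and 0.03, with signs that turned under some alternatives.

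Among small-subunit proteins with a bacterial counterpart, 8 of 13 measured genes rose and none fell (median log2 change 0.96). Mrps16 measured 1818 and 2252 units in control cells, 2535 and 2366 units at the lower dose and 5315 and 5740 units at the higher dose. It was 2.73-fold higher at the higher dose than in control cells (log2 change 1.45 ± 0.17, adjusted p = 0.0204). Mrps28 had 6232 and 5592 units at the higher dose against 2594 and 2161 units in control cells (1.32 ± 0.18, adjusted p = 0.0219). Mrps12, part of the decoding centre, had 11114 and 15519 units at the higher dose against 4617 and 6614 units, with a wider spread between the arrays of each group (1.25 ± 0.27, adjusted p = 0.0485). Mrps24, where the messenger RNA enters, had 16982 and 16166 units against 8426 and 8654 units (0.96 ± 0.17, adjusted p = 0.0335). Mrps6, Mrps10, Mrps11 and Mrps15 rose as well. Mrps14 had the lowest log2 change of the class, -0.63 ± 0.16, and did not pass (adjusted p = 0.0720).

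Among small-subunit proteins without a bacterial counterpart, 1 of 9 measured genes rose, Mrps34 at 14003 and 13164 units against 7729 and 7658 units in control cells (log2 change 0.82 ± 0.18, adjusted p = 0.0491). The median of the 9 was 0.62, and 8 had a positive log2 change. Mrps25 lay between -3 and 3 units on all arrays, which gives it no usable level. It is nevertheless counted among the 9 and the 8, with the largest log2 change of the class (1.03). The MRPS medians and means given below include it too. The difference in calls between the classes was not tested.

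The MRPS18 proteins are related to a single bacterial protein but sit in different places, Mrps18a in the large subunit and Mrps18b in the small one. Mrps18a had 15503 and 15498 units at the higher dose against 7356 and 6757 units in control cells (log2 change 1.14 ± 0.19, adjusted p = 0.0300). Mrps18b had 2470 and 3286 units against 1471 and 1612 units, a log2 change of 0.89 ± 0.20 that missed the threshold (adjusted p = 0.0513). Mrps30, also a large-subunit protein despite its name, measured 19866 and 16758 units in control cells, 17515 and 16032 units at the lower dose and 17849 and 15778 units at the higher dose. The 3 groups overlapped, and the log2 change at the higher dose was -0.12 ± 0.17 (adjusted p = 0.692), a sign that turned positive without normalization or with arrays scaled to equal medians.

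**Figure D2:**
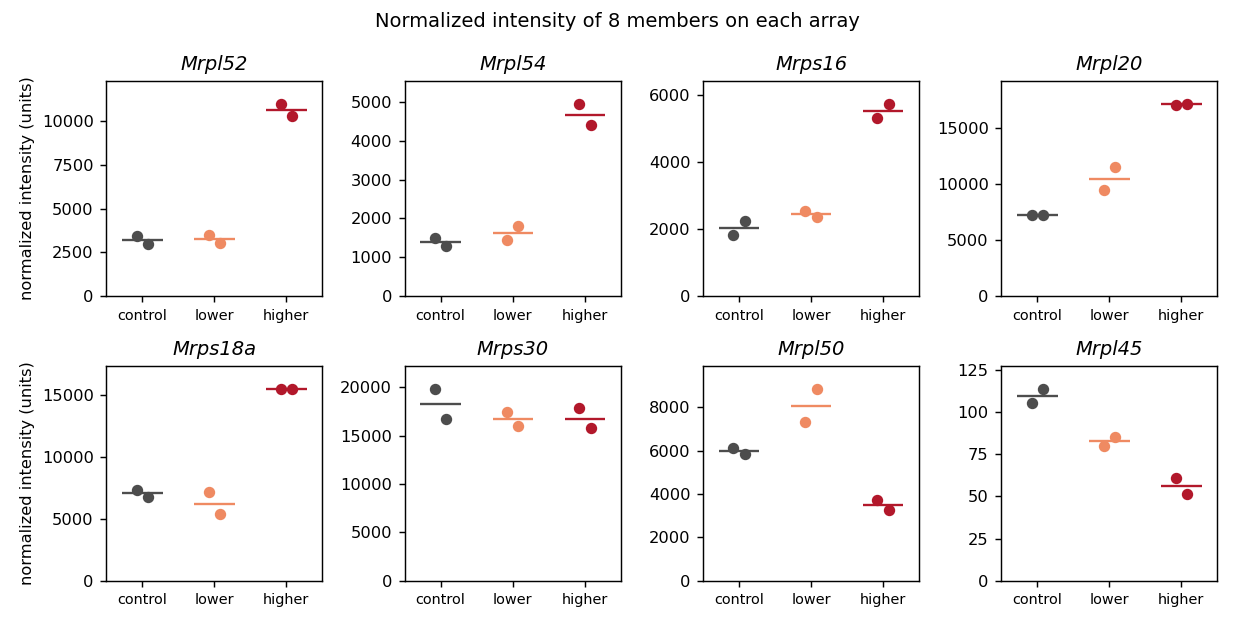
Normalized intensity of 8 member genes on each array, on linear axes from 0, by group from control to lower and higher dose. Points are the 2 arrays of a group and lines their mean. Mrpl52, Mrpl54, Mrps16 and Mrps18a separate at the higher dose, Mrpl20 lies between at the lower dose, Mrps30 overlaps, and Mrpl50 and Mrpl45 are lowest at the higher dose.

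Several genes had probes that disagreed at the higher dose against control, most often a bright probe that rose beside a dim one that did not. Mrpl41, by its brighter probe, had 6722 and 8492 units at the higher dose against 2859 and 3804 units in control cells (log2 change 1.20 ± 0.22, adjusted p = 0.0348), whereas the other probe had 90 and 79 units against 171 and 134 units (-0.84 ± 0.21, adjusted p = 0.0678). Mrps10 rose by 1 of its 3 probes (0.82 ± 0.14, adjusted p = 0.0313). The others gave 0.95 ± 0.26 and, at 152 and 159 units against 244 and 202 units in control cells, -0.51 ± 0.20 (adjusted p = 0.0792 and 0.163). The second probe of Mrpl51 had 508 and 438 units against 355 and 354 units in control cells (0.41 ± 0.16, adjusted p = 0.160), and the second probe of Mrpl11 gave 0.16 ± 0.31 beside 1.16 ± 0.21 for the brighter one (adjusted p = 0.780 and 0.0335). Neither probe of Mrpl17 rose. Its dim probe fell, at 24 and 20 units against 51 and 54 units (-1.27 ± 0.18, adjusted p = 0.0243), while the brighter had 175 and 193 units against 191 and 195 units (-0.07 ± 0.15, adjusted p = 0.801). Both probes of Mrpl48 rose (1.07 ± 0.16 and 1.18 ± 0.16, adjusted p = 0.0256 and 0.0220). Where these probes lie on their transcripts was not analysed here.

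At the lower dose against control, no member passed the threshold in limma, where 0.0114% of all probes did. At an unadjusted p under 0.05 in limma there were 2 of the 76 members, a share below that of all probes, where 1681 of 26423 had one. Mrpl51 had 4694 and 5140 units at the lower dose against 3269 and 3667 units in control cells (log2 change 0.50 ± 0.16, unadjusted p = 0.0215 in limma). Mrpl20 had 9462 and 11492 units against 7256 and 7248 units (0.52 ± 0.16, unadjusted p = 0.0227 in limma). For both genes the adjusted p was 0.764. In both genes the lower-dose arrays lay above the control arrays and below the higher-dose arrays. Next by p came Mrpl33 (0.44 ± 0.18), Mrpl45 (-0.41 ± 0.17) and Mrpl50 (0.42 ± 0.18). Their unadjusted p-values in limma were 0.0548, 0.0554 and 0.0581. Unlike Mrpl51 and Mrpl20, Mrpl50 was highest at the lower dose and lowest at the higher dose. The members' median log2 change was 0.03, against -0.00 over all probes, and turned to -0.07 with arrays scaled to equal medians. Both lower-dose arrays lay above both control arrays for 16 member probes and below them for 11, where all probes gave 18.5% and 16.6%.

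At the higher dose against the lower dose, 31 member probes rose and 3 fell, where 13.7% of all probes were called (6.78% higher and 6.95% lower). With only probes brighter than the median probe in the fit, 46 of 69 members rose and 2 fell. Of 13211 such probes, 6163 were called in either direction. The median log2 change in the main fit was 0.73, against -0.00 over all probes. Mrpl52 was again the member with the smallest p (1.70 ± 0.17, adjusted p = 0.0180). It was followed by Mrpl54 (1.52 ± 0.19, adjusted p = 0.0190) and by Mrpl48 (1.24 ± 0.16, adjusted p = 0.0201). Mrps18a rose by 1.31 ± 0.19 and Mrps18b, which had missed the threshold against control, by 1.04 ± 0.20 (adjusted p = 0.0224 and 0.0333). The largest fall with a bright probe was that of Mrpl50, at 3718 and 3243 units at the higher dose against 7310 and 8845 units at the lower dose (log2 change -1.21 ± 0.18, adjusted p = 0.0223). The other 2 falls were in dim probes of Mrpl17 and Mrpl1. At the higher dose 29 member probes rose, and 1 fell, against both other groups, comparisons that share the higher-dose arrays. How many of all probes did so was not counted, so these counts have no background to stand against. The calls of this comparison rest on all 6 arrays too. With only the 2 groups compared in the fit no member passed, where 7 of all 26423 probes did. Leaving out any 1 array likewise removed the calls of members and nearly all calls over all probes.

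The subunits were set side by side by name. At the higher dose against control, 23 of 50 MRPL probes rose and 2 fell, and 10 of 26 MRPS probes rose and none fell, with median log2 changes of 0.74 and 0.79. Against the lower dose, 19 MRPL probes rose and 3 fell and 12 MRPS probes rose and none fell, with medians of 0.65 and 0.84. With each probe centred on its mean over the 6 arrays, the mean of the MRPL probes was -0.19 and -0.19 in control cells, -0.14 and -0.12 at the lower dose and 0.33 and 0.32 at the higher dose. The mean of the MRPS probes was -0.18 and -0.20 in control cells, -0.21 and -0.27 at the lower dose and 0.45 and 0.41 at the higher dose. Both subunits were therefore highest on both higher-dose arrays. Large minus small was -0.01 and 0.00 in control cells, 0.07 and 0.15 at the lower dose and -0.13 and -0.09 at the higher dose. The difference of these means was -0.10 between the higher dose and control, 0.11 between the lower dose and control and -0.22 between the higher and the lower dose. With only the probes brighter than the median probe it became 0.08 for the higher dose against control, so its direction there depended on the dim probes. Members are not replicates and 2 arrays against 2 cannot reach the threshold in a permutation test, so no test of the subunits was made.

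**Figure D3:**
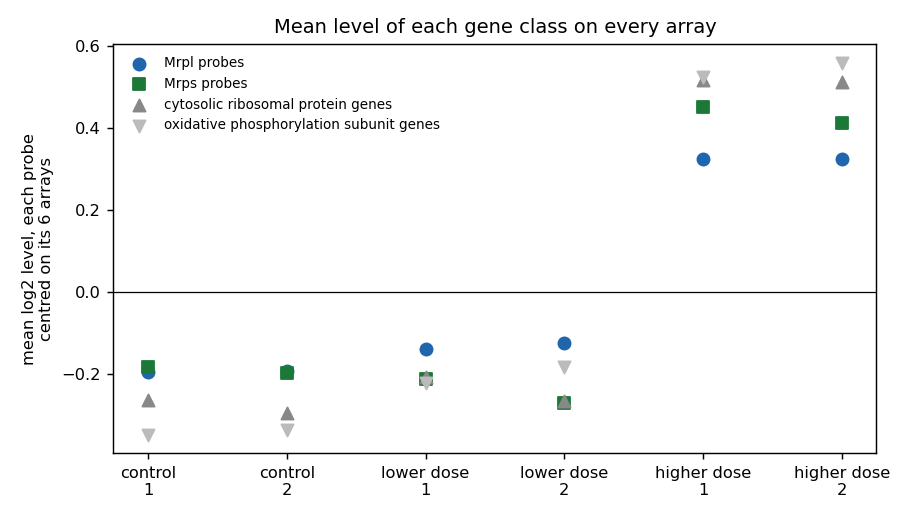
Mean log2 level of MRPL probes, MRPS probes, cytosolic ribosomal protein genes and oxidative phosphorylation subunit genes on each array, each probe centred on its mean over the 6 arrays. All 4 classes lie below 0 on the control and lower-dose arrays and above 0.3 on both higher-dose arrays.

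The same direction was found in classes related by function or by machinery. At the higher dose against control, 32 of the 67 member genes rose (47.8%), 19 of 33 cytosolic ribosomal protein genes (57.6%, none fell) and 44 of 71 oxidative phosphorylation subunit genes (62.0%, 2 fell). The median log2 changes were 0.77, 0.91 and 1.08, and differences between the classes were not tested. The members are short genes, with a median span of 7.59 kb, against 3.35 kb for cytosolic ribosomal protein genes, 7.13 kb for oxidative phosphorylation genes and 19.3 kb for all named genes. After each array's trend with gene span was removed, 29 member probes rose and 5 fell at the higher dose against control. Before that step 33 rose and 2 fell. Only probes with a known span were kept, which come from the 18213 probes matched by exact symbol and the 2126 matched by synonym. Of the probes kept, 2628 then passed in either direction. How many of them rose or fell was not counted, so the members' 29 and 5 have no background by direction. The median log2 change of the 76 member probes became 0.59.

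Other genes of the mitochondrial translation machinery were described from lists chosen with earlier results of these data known. Their counts at the higher dose against control stand against 6.37% of all named genes that rose and 5.39% that fell, and a single call in a list of 10 to 17 genes is near that background. Of 6 measured mitoribosomal proteins that carry other names in the platform table, 3 rose and 1 fell (median log2 change 0.23). Mrpl57 and Mrpl58 are current symbols, and the platform's older symbols for them fall outside the rule for members. Mrpl58, a peptidyl-tRNA hydrolase built into the large subunit, rose by 1.40 ± 0.19 (adjusted p = 0.0231), Mrpl57 by 1.20 ± 0.18 and the small-subunit protein Chchd1 by 0.84 ± 0.16 (adjusted p = 0.0248 and 0.0397). A second, dimmer probe of Mrpl57 gave -0.16 ± 0.15 (adjusted p = 0.517). The small-subunit protein Ptcd3 went the other way. It had 3645 and 3408 units at the higher dose against 7465 and 7592 units in control cells (log2 change -1.09 ± 0.15, adjusted p = 0.0229), with all 4 arrays apart.

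Of 30 measured genes for ribosome assembly and maturation of its RNA, 3 rose and 3 fell (median log2 change -0.14). Slirp, the RNA-binding partner of Lrpprc, rose by 1.32 ± 0.16, and Malsu1, which acts in large-subunit assembly, by 1.39 ± 0.24 (adjusted p = 0.0204 and 0.0309). Fastkd2, needed for the large subunit, fell by 1.59 ± 0.22 on the log2 scale, at 29.3 and 33.7 units against 80.0 and 112 units in control cells (adjusted p = 0.0235), and Grsf1, a protein of mitochondrial RNA granules, fell by 1.05 ± 0.17 (adjusted p = 0.0284). Of 14 translation factors none rose and 1 fell (median -0.17), the elongation factor Gfm1, with 2752 and 3627 units at the higher dose against 9738 and 12464 units in control cells (-1.80 ± 0.27, adjusted p = 0.0259). Tufm, the elongation factor that carries aminoacyl-tRNA, had a log2 change of -0.01 ± 0.18 (adjusted p = 0.989). Of 17 mitochondrial tRNA synthetases, with a median of -0.32, none rose and Tars2, for threonine, fell (-0.89 ± 0.17, adjusted p = 0.0374). A second, dimmer probe of Tars2 fell further (-1.99 ± 0.20, adjusted p = 0.0186), and another lay near the floor. Of 10 genes for mitochondrial DNA transcription and replication, with a median of -0.25, none rose and Twnk fell, at 3562 and 3481 units against 8458 and 7668 units in control cells (-1.19 ± 0.15, adjusted p = 0.0206). A dimmer probe of Twnk gave -1.21 ± 0.31 and missed the threshold (adjusted p = 0.0692). Of 7 regulators of mitochondrial biogenesis (median -0.21) none was called in limma. An unadjusted p under 0.05 in limma was found for 3 of the 7, and for 5529 of all 17742 named genes. Gabpa, the DNA-binding subunit of GABP, had 2475 and 2028 units at the higher dose against 4896 and 3863 units in control cells (log2 change -0.96 ± 0.22, adjusted p = 0.0557). Nrf1 had 504 and 438 units against 724 and 723 units by its brightest probe (-0.62 ± 0.16, adjusted p = 0.0679), and its 2 dimmer probes gave -0.04 ± 0.44 and 0.07 ± 0.19. Esrra, a nuclear receptor that had the smallest p of the list, went the other way, with 514 and 555 units at the higher dose against 340 and 342 units in control cells (0.65 ± 0.15, adjusted p = 0.0534). Of 18 genes for protein import 5 rose and none fell (median 0.56), among them Timm8b, Timm13 and Timm10, small chaperones of the intermembrane space (1.53 ± 0.19, 1.16 ± 0.19 and 1.29 ± 0.22). Their adjusted p-values were 0.0204, 0.0282 and 0.0308, and a dim second probe of Timm13 gave -0.25 ± 0.29 (adjusted p = 0.623).

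**Figure D4:**
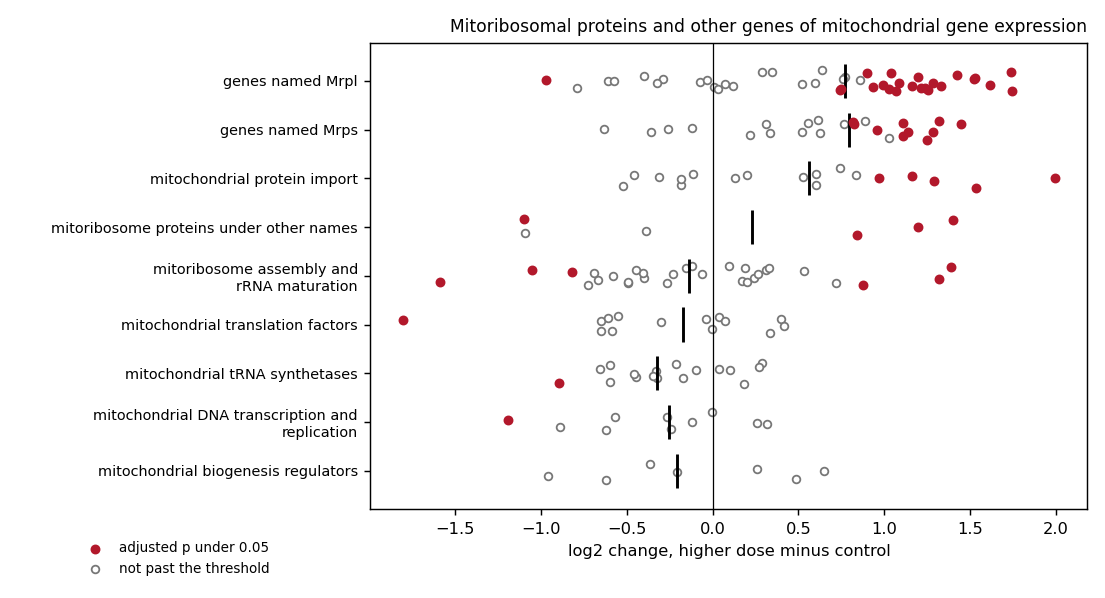
Log2 change, higher dose minus control, of the brightest probe of each gene in the Mrpl and Mrps groups and in 7 lists of other mitochondrial genes. Filled points passed the threshold, open points did not, and vertical bars are list medians, which run from 0.79 for Mrps to -0.32 for the tRNA synthetases.

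Of the 58 member genes with a promoter window, 17 (29.3%) had a window that overlapped that of a gene on the opposite strand, against 14.4% of genes named on the array. In the pair Mrps11 and Mrpl46 both members rose at the higher dose against control. Mrps11 had 1404 and 1808 units against 596 and 720 units in control cells (log2 change 1.28 ± 0.22, adjusted p = 0.0306). Mrpl46 had 7079 and 6821 units against 3815 and 3630 units (0.90 ± 0.15, adjusted p = 0.0311). In the pair Mrpl43 and Twnk the log2 changes had opposite signs, 0.63 ± 0.16 for Mrpl43 (adjusted p = 0.0703) and the fall of Twnk given above. Mrps12 and Sars2, a mitochondrial tRNA synthetase, share 246 bases, and Sars2 had a log2 change of 0.27 ± 0.21 (adjusted p = 0.448) beside the rise of Mrps12. Eme1, opposite Mrpl27, had a log2 change of 0.15 ± 0.16 (adjusted p = 0.577), and Hira, opposite Mrpl40, one of -0.12 ± 0.21 (adjusted p = 0.756). Tcp1, opposite Mrpl18, and Zfp189, opposite Mrpl50, fell (-0.76 ± 0.15 and -1.47 ± 0.18, adjusted p = 0.0383 and 0.0204). Partners with a positive log2 change included Fau, opposite Mrpl49 (1.17 ± 0.26, adjusted p = 0.0514), Tmem63b, opposite Mrpl14 (0.77 ± 0.32, adjusted p = 0.186), and Rab6a, opposite Mrpl48 (0.58 ± 0.23, adjusted p = 0.173). Of the 13 partners on the array that are no members, 6 had a positive log2 change, none rose and 3 fell, where 6.37% of all named genes rose and 5.39% fell. Of the 13 members beside them, 6 rose.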

How the data were processed

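Labelled cDNA of each sample was hybridised to its own single-colour mouse array. The authors deposited intensity values that are linear and, as some are negative, already background-subtracted. RMA is named in the submitters' processing notes. Because RMA values would be logarithmic and share 1 distribution, which these do not, the arrays were treated as not yet normalized and were quantile-normalized here, floored at 1 and put on the log2 scale. The sources used here do not give the scanner, background method or detection flags. Platform symbols were updated through a RefSeq table of GRCm38.p6 (18213 probes by exact match, 2126 by synonym, 38 kept as given, 6046 unnamed). The brightest probe on average stood for a gene.

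One limma model held all 6 arrays and gave each group a mean (limma 3.58.1 in R 4.3.3, functions lmFit and eBayes, 3 residual degrees of freedom). Tests were two-sided, with Benjamini-Hochberg adjustment over 26423 probes and a threshold of 0.05. The fit was tested on simulated data. Figures used Python 3.11.15 and matplotlib 3.10.9. The members, the lists and the tests were chosen with earlier results of these data known. Named members were, per comparison, the 10 with the smallest p in each direction past the threshold (filled to 5 where fewer passed), genes whose probes disagree, and the members whose names and places differ, plus the 3 smallest p of each pathway list. Other named members and partner genes illustrate a class and were chosen after their values were seen. Alternatives were deposited values without normalization, equal medians, brighter probes only, log2(value + 16), a block for the replicate number, the trended prior of eBayes, only the groups compared, removal of the trend with gene span, the mean of the probes of a gene, and leaving out each array.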

Additional observations from a re-analysis of the deposited data

How the results depend on the processing

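All 33 risers of the higher dose against control and all 31 of the higher against the lower dose kept 1 direction under 14 alternatives, and the 2 and 3 fallers did under those that could be run (13 for Mrpl45 and the dim probes of Mrpl17 and Mrpl1, which the filter on dim probes removes), but their calls did not all hold. Counts of 35 members past the threshold at the higher dose against control became 23 with only those groups in the fit. There 2803 calls over all probes became 1584. At the higher against the lower dose, counts of 34 members became 0 with only those groups, where 3629 calls over all probes became 7. Leaving out an array, which leaves 1 in its group, reduced or removed the calls of members and reduced those of all probes in both comparisons. Fewer residual degrees of freedom remain in those fits. As to direction, the replicate block, the trended prior, fits of only the groups compared and the brighter-probe filter leave each log2 change as it was. So does leaving out an array of the group not compared, and none of these settings could turn a sign. At the lower dose against control the count was 0 under every alternative. Titles number the arrays of a group 1 and 2, but same-numbered arrays did not deviate together in every pair of groups: correlations over 13211 probes were 0.31 for the higher dose and control, 0.03 for the lower dose and control and -0.23 for the higher and the lower dose. With the replicate number as a block, 0 members passed at the higher dose against control, where 11 of all 26423 probes did. At the higher against the lower dose 8 members passed, where 1395 of all probes did.

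Without normalization the median log2 change of members was 0.84 at the higher dose against control, 0.18 at the lower dose against control and 0.71 at the higher against the lower dose, where the median of all probes was itself -0.00, 0.22 and -0.25. With equal medians the values were 0.78, -0.069 and 0.88, and with the span trend removed 0.59, 0.051 and 0.63. With log2(value + 16) the higher dose against the lower gave 0.70. Leaving out an array gave 0.69 to 0.75, 0.0057 to 0.046 and 0.68 to 0.76. Large minus small subunit at the higher dose against control was 0.084 with brighter probes only, -0.048 with log2(value + 16), -0.15 with the span trend removed and -0.12 to -0.084 with an array left out. At the higher against the lower dose these were -0.051, -0.15, -0.27 and -0.25 to -0.18, and at the lower dose against control 0.078 to 0.15 with an array left out. The cause of these shifts was not tested.

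Over the 76 member probes the sign turned under at least 1 alternative for 8 at the higher dose against control, 44 at the lower dose against control and 4 at the higher against the lower dose, none of them past the threshold. Of the members named by rule, 4 genes turned. At the higher dose against control, the second probe of Mrpl11 became -0.0045 with the span trend removed and lay between -0.28 (without the first control array) and 0.60 with an array left out. In the same comparison Mrps30 became 0.19 without normalization and 0.12 with equal medians, and lay between -0.24 and 0.0020 (without the first control array) with an array left out. At the higher against the lower dose Mrps30 became -0.15 with the span trend removed and lay between -0.087 and 0.091 with an array left out, negative without the second lower-dose array (-0.062) or the first higher-dose array. At the lower dose against control Mrps30 became 0.0048 and Mrps18b 0.021 without normalization, and Mrps18a lay between -0.38 and 0.026 (without the second lower-dose array) with an array left out. Low signal over background limits Mrps25, Mrpl45 and the dim probes of Mrpl1 and Mrpl17.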
